A study of Gallus gallus with 10 samples.

Results

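The caudal homeobox genes CDX1, CDX2 and CDX4 were followed through the 10 RNA-seq libraries of a chicken embryo series. These members were taken by their gene symbols, and they are 3 of the 25443 genes of the gene table. All 3 passed the filter on low counts that left 16611 genes for testing. The series asked what exogenous Otx2, a homeobox gene of the anterior head, does to the posterior trunk and to the brain of the early embryo. OT was the sinus rhomboidalis-equivalent portion of embryos electroporated with mouse Otx2, and CT was the sinus rhomboidalis of control embryos (2 libraries each). OH and CH were the midbrain-hindbrain of Otx2-electroporated and control embryos (2 libraries each), and OA and CA were their posterior area opaca (1 library each). All embryos were wild type. The vectors were introduced into the epiblast at st. 4/5, and the embryos were then grown ex ovo and collected at st. 10-11. Each library was a pool of tissue from 4 embryos, so that the spread between the libraries of a group is a spread between pools.

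Mouse Otx2 was driven from the pCAGGS vector, which is active in most cell types, and was delivered together with a pCAGGS-EGFP vector, so that a tissue portion could hold electroporated and other cells side by side. Per the study's methods, the control embryos received EGFP and an empty pCAGGS vector. For the CT libraries the labels disagree on this. The title of CT1 gives no electroporation whereas its treatment entry gives the EGFP vector, and CT2 carries a treatment entry without electroporation. EGFP was 1.12 TPM (12 reads) in CT1 and 15328 TPM in CT2, which matches the title of CT1 and neither treatment entry. It was 5904 TPM in OT1 and 9062 TPM in OT2. CT1 thus held almost no vector transcript, so in OT against CT electroporation itself cannot be fully told apart from exogenous Otx2. The values with each CT library left out are given below. TPM is the level of a transcript corrected for its length and for the depth of its library, and CPM is a read count scaled by depth alone. Mouse Otx2 was 334 TPM in OT1, 529 TPM in OT2, 97.4 TPM in OH1, 160.3 TPM in OH2 and 139.5 TPM in OA, and no read of it was counted in a control library. The libraries held between 28606038 and 40806402 counted reads, and the 3 reads that a count of 0 allows correspond to at most 0.105 CPM. Intervals and limits drawn from read counts cover counting error only, since PCR copies of a molecule were not marked.

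Caudal genes encode homeodomain transcription factors of the ParaHox group, the sister genes of the HOX clusters. In vertebrate embryos they are expressed in the posterior growth zone, where Wnt and FGF signals act on them, and they in turn bind and activate HOX genes of the trunk. In mouse embryos the loss of several Cdx genes truncates the body axis, and Cdx2 is also needed in the trophectoderm. CDX1 and CDX2 are later known as transcription factors of the intestinal epithelium, whereas CDX4 is known mainly from the posterior embryo and, in fish and mouse, from early blood formation.

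On the GRCg7w assembly, CDX1 (gene identifier 395397) runs from 12849623 to 12859934, CDX2 (374205) from 175983313 to 175987502, and CDX4 (395320) from 12099135 to 12109001. Their chromosomes are 13, 1 and 4, taken by gene identifier from a table of the GRCg7b assembly. CDX1 and CDX4 have 1 annotated transcript each, of 2417 and 2610 bases. CDX2 has a transcript of 1468 bases and a predicted variant of 2101 bases.

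In OT, CDX4 fell, CDX1 rose, and CDX2 did not pass the test. CDX4 averaged 25.6 ± 15.9 TPM in OT and 196 ± 8.28 TPM in CT, and CDX1 averaged 38.7 ± 12.2 TPM in OT and 5.35 ± 4.32 TPM in CT (SD, 2 pools each). CDX2 averaged 70.7 ± 55.7 TPM in OT and 126 ± 9.47 TPM in CT (SD, 2 pools each). CDX4 and CDX1 thus differed between OT and CT in opposite directions.

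CDX4 was 36.8 TPM in OT1 and 14.3 TPM in OT2, against 202 TPM in CT1 and 190.2 TPM in CT2. Both OT libraries were below both CT libraries, and the ratio of OT to CT over the 4 pairs of libraries lay between 0.071 and 0.194. On the log2 scale CDX4 differed by -2.88 with a standard error of 0.43, and its p after Benjamini-Hochberg adjustment in edgeR's quasi-likelihood test was 0.0172 (adjusted p). Among all genes ranked by TPM, CDX4 stood at places 738 and 751 in CT1 and CT2, and at places 4213 and 7783 in OT1 and OT2. In read counts CDX4 had 1474 and 613 reads in OT1 and OT2, against 7492 and 9621 reads in CT1 and CT2, so that counting error was small beside the spread between pools.

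CDX1 was 47.3 TPM in OT1 and 30.0 TPM in OT2, against 2.29 TPM in CT1 and 8.40 TPM in CT2. Both OT libraries were above both CT libraries, with pair ratios between 3.57 and 20.6, and the CT libraries themselves differed 3.66-fold. On the log2 scale CDX1 differed by 2.90 (standard error 0.63), with an adjusted p of 0.041 in the same edgeR test. Its 79 reads in CT1 and 394 reads in CT2 were the thinnest trunk values of the family.

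CDX2 was 110.1 TPM in OT1 and 31.4 TPM in OT2, against 119 TPM in CT1 and 133 TPM in CT2. Both OT libraries were again below both CT libraries, OT1 close to them and OT2 well below them. How many of all genes separate OT from CT in this way was not counted. A lack of overlap is therefore only a description, for this and any other gene. On the log2 scale CDX2 differed by -0.83 (standard error 0.50), with an adjusted p of 0.322 by edgeR, and a change of CDX2 was not detectable against the 3.51-fold spread between OT1 and OT2.

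Of the 3 members, 2 were called between OT and CT, against 6.73% of all genes tested (4.29% called higher and 2.44% called lower in OT). The call of CDX1 was lost in 7 of the 8 fits that left out 1 library each, with a log2 fold change between 2.25 and 4.12, and of these fits it held only in that without CT2 (4.12, adjusted p = 0.0345 by edgeR). Without CT1 it was 2.25 (adjusted p = 0.159) and without OT1 it was 2.48 (adjusted p = 0.0999). CDX4 lay between -3.77 and -2.29 in the same fits and kept its call in 7 of 8, the exception being the fit without CT1 (-2.83, adjusted p = 0.102). CDX2 was -2.05 without OT1 and -0.14 without OT2, so that its value rests on which OT pool is read. Neither of these fits holds the spread between OT1 and OT2. In bulk tissue, fewer cells of a type and less RNA per cell cannot be told apart, which holds for each of these differences.

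**Figure D1:**
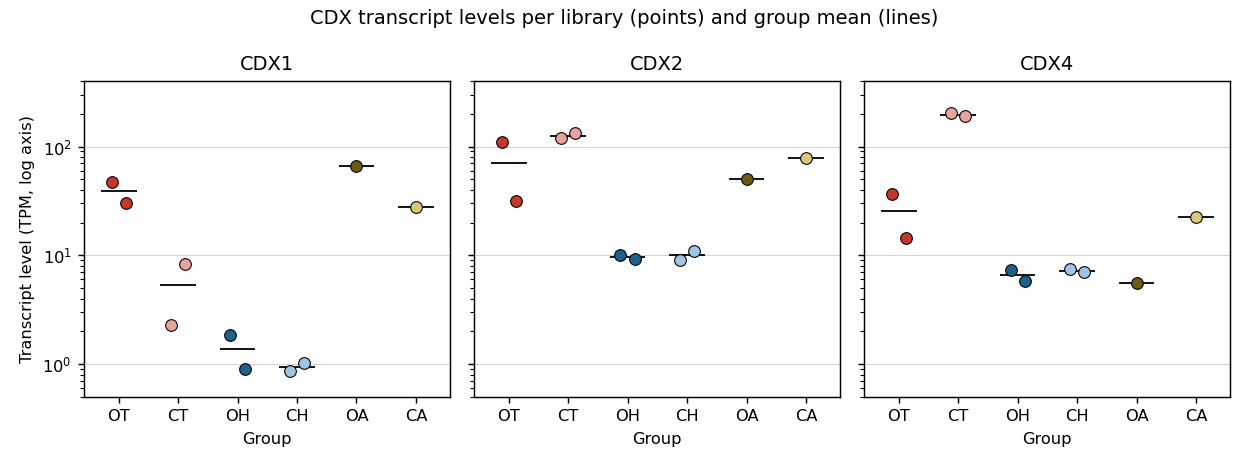
Levels of CDX1, CDX2 and CDX4 in TPM (logarithmic axis) in each of the 10 libraries, 1 point per library, with a line at the group mean. The OT points of CDX4 (36.8 and 14.3 TPM) lie below its CT points (202 and 190.2 TPM), those of CDX1 (47.3 and 30.0 TPM) lie above its CT points (2.29 and 8.40 TPM), and those of CDX2 are spread from 31.4 to 110.1 TPM.

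In the posterior area opaca, the extraembryonic tissue around the embryo, CDX1 was 66.4 TPM in OA and 27.8 TPM in CA. CDX2 was 50.2 TPM in OA and 78.3 TPM in CA, and CDX4 was 5.57 TPM in OA and 22.5 TPM in CA. With 1 library per group these values compare a pair of libraries and have no replicate check. The ratio of OA to CA in CPM was 2.13 for CDX1 (exact 95% interval of the counts 1.99 to 2.28), 0.576 for CDX2 (0.542 to 0.611) and 0.221 for CDX4 (0.193 to 0.251). CDX1 was thus the higher and CDX4 the lower of the pair in OA, as they were in OT relative to CT, and CDX2 was lower in OA than in CA.

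The midbrain-hindbrain held low levels of all 3 genes with and without exogenous Otx2. CDX1 was 1.86 TPM in OH1 and 0.899 TPM in OH2, against 0.854 TPM in CH1 and 1.02 TPM in CH2. CDX2 was 10.1 TPM in OH1 and 9.33 TPM in OH2, against 9.05 TPM in CH1 and 10.9 TPM in CH2. CDX4 was 7.35 TPM in OH1 and 5.75 TPM in OH2, against 7.45 TPM in CH1 and 6.99 TPM in CH2. The OH and CH libraries overlapped for each gene. The log2 fold changes between OH and CH were 0.51 for CDX1 (standard error 0.65), -0.07 for CDX2 (0.51) and -0.17 for CDX4 (0.42), each with an adjusted p of 1 by edgeR. None of the 3 members was called in this comparison, in which 0.0361% of all genes were called and 459 genes had an unadjusted p under 0.05.

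The effect in OT was not shown to differ from that in OH for any member. The difference between the log2 fold changes (OT against CT, minus OH against CH) was -2.71 for CDX4 (standard error 0.58, adjusted p = 0.15 by edgeR), 2.39 for CDX1 (standard error 0.89, adjusted p = 0.315) and -0.77 for CDX2 (standard error 0.71, adjusted p = 0.7). In this test 0 of the 3 members were called, against 0.223% of all genes (0.0843% with a positive and 0.138% with a negative difference), and 2175 genes had an unadjusted p under 0.05. Without OT1 the difference was -1.99 for CDX2 and -3.61 for CDX4, and without OT2 that of CDX4 was -2.12. These fits hold no spread between OT1 and OT2, so a test passed in them does not settle the question.

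Between the control regions, CDX4 and CDX2 were higher in CT than in CH. EGFP was 1.12 TPM in CT1, against 7368 TPM in CH1 and 3977 TPM in CH2. Region and electroporation thus cannot be fully told apart here either. The log2 fold change of CT over CH was 4.75 for CDX4 (standard error 0.47, adjusted p = 0.00294 by edgeR), with pair ratios between 25.5 and 28.9. It was 3.70 for CDX2 (standard error 0.55, adjusted p = 0.0108), with pair ratios between 10.9 and 14.7. CDX1 differed by 2.47 (standard error 0.65, adjusted p = 0.067) and pair ratios between 2.24 and 9.83. Hence 2 of the 3 members were called between CT and CH, against 7.78% of all genes tested (2.91% higher and 4.88% lower in CT). The CDX4 call held in each of the 8 fits that left out 1 library. The CDX2 call was lost without CH1 (adjusted p = 0.0762) or CH2 (adjusted p = 0.0616), at log2 fold changes between 3.57 and 3.81. CDX1 was 3.11 without CT1 (adjusted p = 0.0372) and 1.25 without CT2 (adjusted p = 0.283).

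The same regions were also compared in the embryos with exogenous Otx2. The log2 fold change of OT over OH was 4.86 for CDX1 (standard error 0.70, adjusted p = 0.0307 by edgeR), 2.93 for CDX2 (standard error 0.54, adjusted p = 0.0415) and 2.03 for CDX4 (standard error 0.42, adjusted p = 0.0504). Of the 3 members, 2 were called here, against 3.34% of all genes tested (1.52% higher and 1.82% lower in OT). In the fits without 1 library, the CDX1 call was lost without OT1, OH1, OH2 or CH1, and the CDX2 call was lost in 6 of 8, holding without OT1 or OT2, with 3.61 as the highest and 1.71 as the lowest log2 fold change. CDX4 was 1.14 without OT1 and 2.61 without OT2. The fits without OT1 or OT2 hold no spread between the OT pools. The OT libraries are shared with the comparison of OT with CT, and the CT libraries with that of CT with CH, so that these comparisons are not independent of each other.

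**Figure D2:**
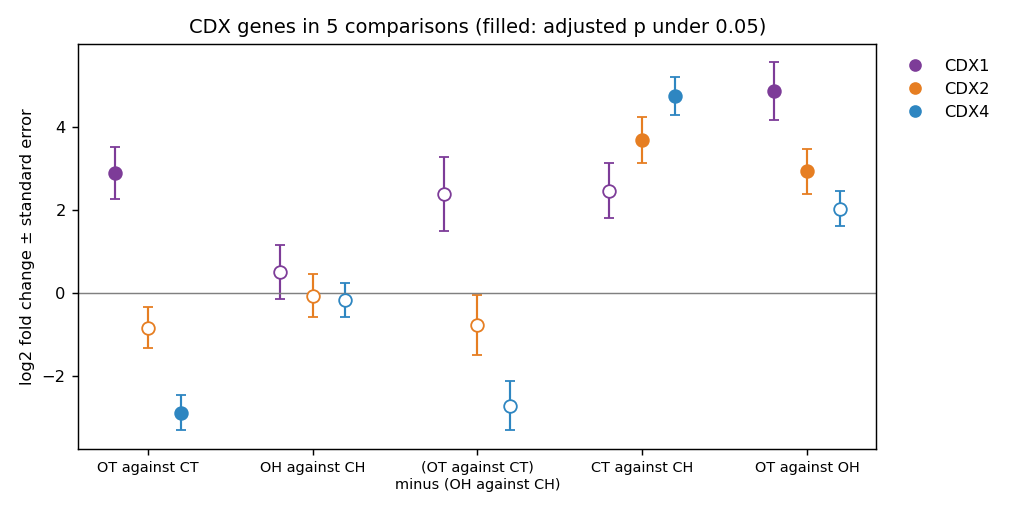
Log2 fold changes of CDX1, CDX2 and CDX4 with standard errors computed from edgeR's F statistic, for OT over CT, OH over CH, the difference of these, CT over CH and OT over OH. Filled points passed the adjusted p threshold of 0.05: CDX1 (2.90) and CDX4 (-2.88) for OT over CT, CDX2 (3.70) and CDX4 (4.75) for CT over CH, and CDX1 (4.86) and CDX2 (2.93) for OT over OH.

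Ordered by group, CDX1 was highest in OA (66.4 TPM), followed by OT (30.0 to 47.3 TPM), CA (27.8 TPM), CT (2.29 to 8.40 TPM), OH and CH. CA lay just under the lower OT library, and OH overlapped CH. CDX2 was highest in CT, and the single libraries CA (78.3 TPM) and OA (50.2 TPM) fell inside the range of OT. CDX4 was highest in CT, CA (22.5 TPM) fell inside the range of OT, CH overlapped OH, and OA (5.57 TPM) was just under OH2 (5.75 TPM).

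The makeup of the family therefore differed between the groups. CDX4 made up 19.0% of the summed TPM of the family in OT1 and 18.9% in OT2, against 62.4% in CT1 and 57.4% in CT2. CDX1 made up 24.4% in OT1 and 39.6% in OT2, against 0.709% in CT1 and 2.54% in CT2. CDX2 made up 56.7% and 41.4% in OT1 and OT2, against 36.9% and 40.0% in CT1 and CT2. The summed level itself was 194 TPM in OT1 and 75.7 TPM in OT2, against 323 TPM in CT1 and 331 TPM in CT2, so that both OT libraries held less caudal transcript in all.

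In OA the shares were 54.4% for CDX1, 41.1% for CDX2 and 4.56% for CDX4 at a sum of 122 TPM, and in CA they were 21.6%, 60.8% and 17.5% at a sum of 129 TPM. The shares of OT1 were thus nearer to those of CA than to those of either CT library. In the midbrain-hindbrain the sums were 16.0 to 19.3 TPM in OH and 17.4 to 19.0 TPM in CH. On the TPM scale CDX2 was the largest share in each of those 4 libraries. In read counts, which are not corrected for length, CDX4 was the largest in OH1 (45.8%, CDX2 43.5%) and CH1 (51.5%, CDX2 42.9%). CDX2 stayed the largest in OH2 (49.2%, CDX4 44.3%) and CH2 (48.9%, CDX4 44.9%). The ratio of CDX1 to CDX4 in TPM was 1.28 and 2.09 in OT1 and OT2, against 0.0114 and 0.0442 in CT1 and CT2, and it was 11.9 in OA and 1.23 in CA.

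**Figure D3:**
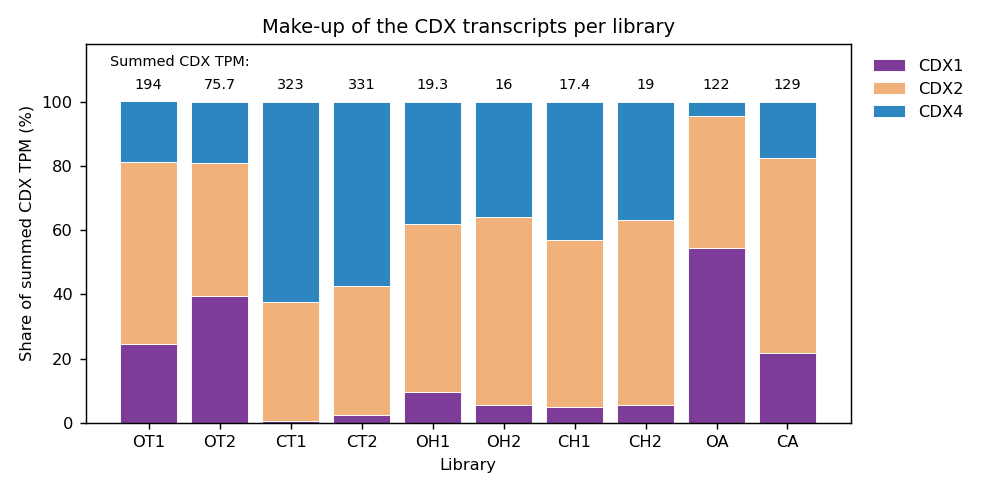
Share of CDX1, CDX2 and CDX4 in the summed TPM of the family, in percent, as 1 stacked bar per library. CDX4 takes 62.4% and 57.4% in CT1 and CT2 and no more than 19.0% in the OT, OA and CA libraries.

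The transcripts of CDX2 begin at the same coordinate of the table, 175983313, and end at 175986779 (1468 bases) and 175987502 (2101 bases). The longer one took 58.3% of the CDX2 reads in OT1 (Wilson 95% interval 56.5 to 60.0) and 61.3% in OT2 (58.2 to 64.4), against 61.4% in CT1 (59.7 to 63.2) and 78.7% in CT2 (77.5 to 79.8). It took 62.3% in OH1 and 59.2% in OH2, against 57.9% in CH1 and 63.4% in CH2, and 65.4% in OA against 63.9% in CA. CT2 thus stood apart from the other 9 libraries. The CT libraries had a like gene level, but the shorter transcript was 56.4 TPM in CT1 and 37.1 TPM in CT2 and the longer one 62.8 TPM in CT1 and 95.5 TPM in CT2. On the TPM scale the share of the longer transcript was 72.0% in CT2 and between 49.2% and 56.9% elsewhere. CT2 differed from CT1 by more than CT1 did from either OT library, and no difference in transcript use between OT and CT can be read from these libraries. StringTie divides reads that both transcripts could have given, and these shares are its estimates.

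**Figure D4:**
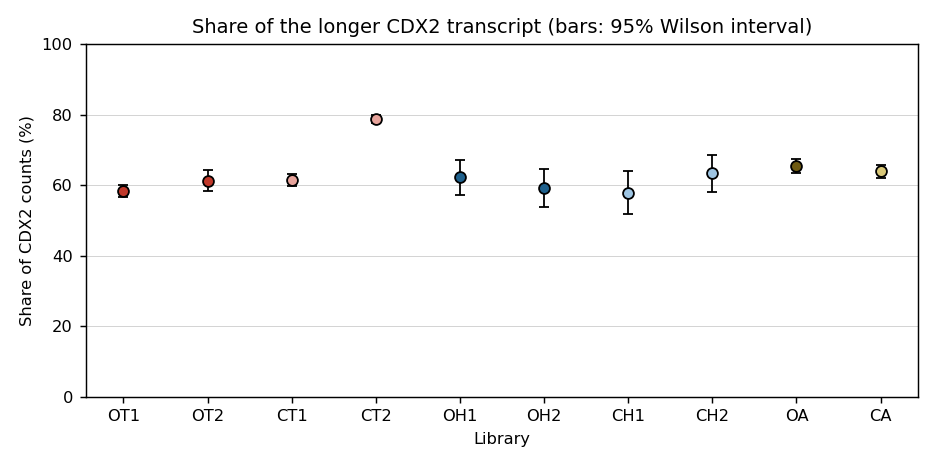
Share of the CDX2 reads assigned to its longer, predicted transcript in each library, in percent, with Wilson 95% intervals that cover counting error only. CT2 lies at 78.7%, and the other 9 libraries lie between 57.9% and 65.4%.

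The genes nearest to CDX4 were followed on both sides. HOXCDX1L, annotated as a homeobox protein similar to CDX-1 (gene identifier 422317), ends 4974 bases before CDX4. It was 28.5 TPM in OT1 and 3.31 TPM in OT2, against 193 TPM in CT1 and 168 TPM in CT2. Its groups did not overlap, but the spread between OT1 and OT2 was wide, and its log2 fold change of -3.43 (standard error 0.87) missed the threshold (adjusted p = 0.0607 by edgeR). HOXCDX1L was 1.72 TPM in OA, against 13.4 TPM in CA, and at most 1.54 TPM in the midbrain-hindbrain. Between the control regions it was higher in CT than in CH by 6.99 on the log2 scale (adjusted p = 0.0107). The symbol rule of the family does not include it, although its annotation names a caudal relative.

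CHIC1, which encodes a cysteine-rich membrane-associated protein, begins 3840 bases after CDX4. CHIC1 was 14.1 TPM in OT1 and 9.13 TPM in OT2, against 56.6 TPM in CT1 and 52.7 TPM in CT2, and fell by 2.19 on the log2 scale (standard error 0.24, adjusted p = 0.00847 by edgeR). It was higher in CT than in CH by 2.81 (adjusted p = 0.00202), and it was 11.2 TPM in OA and 15.6 TPM in CA. An uncharacterized non-coding RNA, LOC112532291, overlaps CDX4 in the annotation and was at most 0.424 TPM in any library. The strand setting of the counting is not given in the sources used here, so reads of CDX4 and of an overlapping gene may not be told apart, although the level of the non-coding RNA was small beside that of CDX4.

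**Figure D5:**
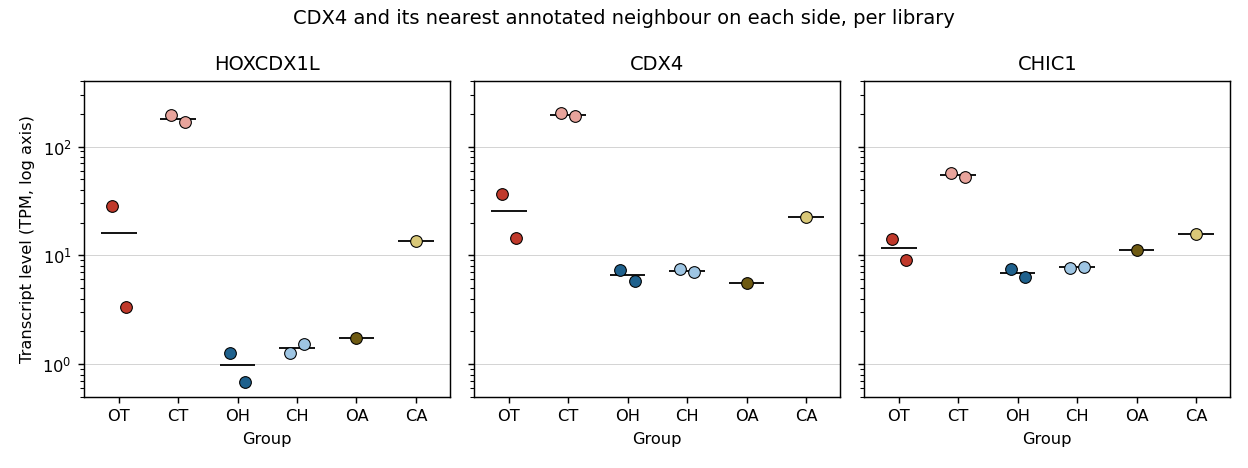
TPM (logarithmic axis) of CDX4 and of the genes that flank it, HOXCDX1L and CHIC1, in each of the 10 libraries, with a line at the group mean. All 3 genes lie higher in CT1 and CT2 than in any other library, and OT1 lies above OT2 for each of them.

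At CDX1 the gene 5301 bases after it, PDGFRB, the receptor of platelet-derived growth factor B in mesenchyme, also rose. PDGFRB was 8.17 TPM in OT1 and 4.72 TPM in OT2, against 0.883 TPM in CT1 and 1.88 TPM in CT2 (log2 fold change 1.99, standard error 0.30, adjusted p = 0.0184 by edgeR). Unlike CDX1, PDGFRB was lower in CT than in CH (-2.68, adjusted p = 0.00478). The gene 3186 bases before CDX1, SLC6A7, a proline transporter of neurons, was at most 3.02 TPM in any library and did not pass the test between OT and CT (1.87, adjusted p = 0.176). CDX2 lies beside FLT3, 5820 bases before it and at most 0.117 TPM, and beside PDX1, 8759 bases after it. PDX1, the ParaHox gene of the pancreas, was 1.95 TPM in OT1 and 3.67 TPM in OT2, against 1.199 TPM in CT1 and 0.880 TPM in CT2 (log2 fold change 1.47, adjusted p = 0.231 by edgeR). Of the other ParaHox relatives listed, GSX1 was in the table with a level of at most 0.0943 TPM and was not tested.

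Over the 10 libraries, the genes whose log2(TPM + 1) followed each member most closely were not the same for any pair of members. CDX4 was most like HOXCDX1L (Pearson r = 0.991), FAM227B (0.989), WNT8A (0.984), FHAD1 (0.983) and HOXC9 (0.979). Of these, FAM227B was at most 1.66 TPM in any library, and HOXC9 was 0 TPM in the OH and CH libraries. Among the genes most like CDX1 were SPI1 (0.983), which encodes a transcription factor of blood cells, ATP6V1C2 (0.982), IL10RB (0.981) and DPEP1 (0.979). CDX2 was most like EPHA1 (0.989), ARRDC4 (0.986), LGALS8 (0.985), TMEM63A (0.98) and ACSF2 (0.977). These were the highest of 12450 genes, they are descriptions over libraries of 6 groups that share 3 tissues, and they carry no test. Among the members, r was 0.817 between CDX2 and CDX4, 0.632 between CDX1 and CDX2, and 0.109 between CDX1 and CDX4. Without the area opaca these were 0.934, 0.634 and 0.345. Of the 5 genes most like each member, 2 were kept for CDX1, 3 for CDX2 and 3 for CDX4 over those 8 libraries. With log2(TPM + 0.1) over all 10 libraries, 3 of the 5 were kept for CDX1, 4 for CDX2 and 3 for CDX4.

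SPI1 was 10.7 TPM in OT1 and 4.73 TPM in OT2, against 0.591 TPM in CT1 and 3.73 TPM in CT2, and it was 17.7 TPM in OA and 9.67 TPM in CA. SPI1 shared with CDX1 the higher level in OA than in CA and in CT2 than in CT1.

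Wnt and FGF signals act on caudal genes in the growth zone. Of the 10 Wnt pathway genes listed, 5 were called lower and 0 higher in OT than in CT, with a median log2 fold change of -1.73. Over all genes tested the median was 0.03, and 2.44% were called lower and 4.29% higher. WNT3A, the Wnt ligand of the posterior growth zone, was 14.1 and 6.78 TPM in OT1 and OT2, against 29.1 and 31.5 TPM in CT1 and CT2 (-1.48, adjusted p = 0.0457 by edgeR). The others called lower were WNT5A, the transcription factors LEF1 and TCF7, and the Wnt target AXIN2. WNT8A had values of 13.4 and 2.82 TPM in OT1 and OT2, against 77.9 and 96.2 TPM in CT1 and CT2, and an adjusted p of 0.0511 by edgeR.

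Of the 11 FGF pathway genes listed, 10 were in the table and tested. All 10 had negative log2 fold changes between OT and CT (median -2.89), and 3 were called lower, against 2.44% of all genes. FGF8, the ligand that marks the growth zone, was 24.3 TPM in OT1 and 4.90 TPM in OT2, against 159 TPM in CT1 and 131 TPM in CT2 (-3.24, adjusted p = 0.0364 by edgeR). ETV5 and SPRY2, which FGF signals induce, were also called lower.

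Genes of retinoic acid metabolism differed in both directions. ALDH1A2, which makes retinoic acid, rose to 29.1 TPM in OT1 and 124 TPM in OT2, against 3.52 TPM in CT1 and 5.30 TPM in CT2 (4.13, adjusted p = 0.0319 by edgeR). CYP26A1, which degrades it and is a target of CDX2 in the mouse, fell to 8.79 TPM in OT1 and 12.5 TPM in OT2, against 31.0 TPM in CT1 and 23.2 TPM in CT2 (-1.33, adjusted p = 0.0309). The receptors RARA and RARB, the other listed genes of this group that were tested, did not pass the test.

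The 12 listed genes that act in the growth zone beside the caudal genes had negative log2 fold changes between OT and CT (median -2.31). Of them, 5 were called lower, against 2.44% of all genes: TBXT, TBX6, SALL4, SP8 and LIN28A. TBXT, the T-box factor of the primitive streak and tail bud, was 38.3 TPM in OT1 and 21.4 TPM in OT2, against 214 TPM in CT1 and 192 TPM in CT2 (-2.71, adjusted p = 0.00724 by edgeR). NKX1-2, a marker of the caudal epiblast, was 5.26 and 0.479 TPM in OT1 and OT2, against 50.8 and 33.8 TPM in CT1 and CT2, and did not pass the test (adjusted p = 0.0578). SOX2 was 10.1 and 26.4 TPM in OT1 and OT2, against 23.4 and 16.3 TPM in CT1 and CT2, and its groups overlapped.

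HOX genes, the best known targets of caudal factors, were counted in 3 blocks by their place in the clusters. Of the 11 genes of groups 1 to 4, 9 were called lower in OT than in CT (median -1.77). Of the 11 genes of groups 5 to 9, 4 were called lower (HOXA5, HOXB6, HOXB7 and HOXB8), with a median of -3.1. In each of these blocks all 11 log2 fold changes were negative. Over all genes tested, 2.44% were called lower. Of the 12 genes of groups 10 to 13, 6 were tested and 0 passed (median -4.01). HOXA7, of the central block, had 112 TPM in OT1 and 3.89 TPM in OT2, against 852 TPM in CT1 and 665 TPM in CT2 (-3.63, adjusted p = 0.114 by edgeR). HOXB8, of the same block, was 117 TPM in OT1 and 23.4 TPM in OT2, against 592 TPM in CT1 and 498 TPM in CT2 (-2.89, adjusted p = 0.0445). HOXA4, of the anterior block, was 26.0 TPM in OT1 and 13.1 TPM in OT2, against 172 TPM in CT1 and 107 TPM in CT2 (-2.78, adjusted p = 0.0154).

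Other genes bound by CDX in the mouse were DLL1, PAX3 and CYP26A1. DLL1, a Notch ligand of the presomitic mesoderm, was 18.9 TPM in OT1 and 6.64 TPM in OT2, against 85.9 TPM in CT1 and 70.9 TPM in CT2 (-2.55, adjusted p = 0.0266 by edgeR). PAX3 had a log2 fold change of -1.21 and did not pass the test (adjusted p = 0.0693). Between CT and CH, 10 of 11 HOX genes of groups 1 to 4 and 11 of 11 of groups 5 to 9 were called higher in CT, against 2.91% of all genes tested. Between OH and CH none of the listed genes of any of these groups was called. Since only 0.0361% of all genes tested were called there, this says little about the lists.

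Most of these counts and calls depended on single libraries, some of them outside OT and CT, since all 8 share 1 estimate of the spread. Without CT1, 0 genes of HOX groups 1 to 4, HOX groups 5 to 9, the FGF list and the growth zone list were called lower, and 2 of the Wnt list, in a fit that called 53 genes in all. Of HOX groups 1 to 4, 2 were called without CT2, OH1 or OH2, and 5 without OT1 or OT2. Of HOX groups 5 to 9, 1 was called without OH1 or OH2, 2 without CT2, CH1 or CH2, 7 without OT2 and 10 without OT1. Of the FGF list, 1 was called without OH1 or OH2 and 6 without OT1. Of the growth zone list, 1 was called without OH1 or OH2, 2 without CT2 and 3 without CH1.

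The counts also differed between methods. DESeq2 called 10 of the FGF list, 8 of HOX groups 5 to 9, 9 of HOX groups 1 to 4 and 7 of the growth zone list lower. limma on log2(TPM + 1) called 6, 9, 8 and 7 of them, and edgeR with only the 4 libraries of OT and CT called 0, 1, 2 and 1.

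Of the named genes, TBXT (adjusted p = 0.0578 by edgeR), CHIC1 (0.0669), HOXA4 (0.0989) and PDGFRB (0.135) lost the call without CT1 and kept it in the other 7 fits. WNT3A, FGF8 and HOXB8 kept it without OT1 or OT2 and lost it without any other library, with WNT3A at 0.196, FGF8 at 0.176 and HOXB8 at 0.203 (adjusted p by edgeR) without CT1. DLL1 lost it without CT1, CT2, OH1 or OH2 (highest adjusted p = 0.145), CYP26A1 without OT1, CT1, OH1 or OH2 (0.188), and ALDH1A2 without OT2, CT1, CT2, OH1 or OH2 (0.209). HOXCDX1L, HOXA7, NKX1-2 and WNT8A missed the threshold in the main edgeR fit of all 8 libraries, but not under every method. The DESeq2 Wald test passed HOXCDX1L (adjusted p = 0.00843), NKX1-2 (0.00762) and HOXA7 (0.0434) but not WNT8A (0.126). limma on log2(TPM + 1) passed HOXCDX1L (adjusted p = 0.0401), NKX1-2 (0.0255) and WNT8A (0.0234) but not HOXA7 (0.0637). HOXCDX1L was -5.76 without OT1 and -2.54 without OT2. A fit without OT1 or OT2 holds no spread between the OT pools, so it cannot settle whether these genes differ.

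Markers of other tissues were summed beside the caudal genes. The summed level of 9 gut epithelium markers was 148 to 298 TPM in OT and 70.1 to 135 TPM in CT, and it was 652 TPM in OA and 579 TPM in CA. Of these, 8 were tested with a positive log2 fold change each (median 1.3). By edgeR 1 of the 8 was called higher, against 4.29% of all genes tested. The listed marker that was not tested, MEP1A, had 0 reads in 5 libraries and at most 0.0643 TPM in any. Early endoderm markers (7 of 8 listed) summed to 316 to 344 TPM in OT and 128 to 165 TPM in CT. All 7 were positive, and 1 was called higher, FOXA2 (1.47, adjusted p = 0.033 by edgeR), against 4.29% of all genes tested. The sum was 224 TPM in OA and 203 TPM in CA. It was also 214 to 216 TPM in OH and 134 to 302 TPM in CH. The study's section of a control embryo at midbrain level also held endoderm. The part of endoderm in any of these sums was not tested. Markers of extraembryonic tissue and blood (10 of 12 listed) summed to 11207 to 27593 TPM in OT and 10906 to 11811 TPM in CT, and to 67325 TPM in OA and 63251 TPM in CA. Between OT and CT 0 of the 10 were called, against 6.73% of all genes tested. The list was mixed, with 5 positive log2 fold changes and a median of 0.0836. TTR (1.52), APOA1 (1.49) and RBP4A (1.34) were highest and GATA2 (-1.05) was lowest. TTR was 4814 and 4852 TPM in OT1 and OT2, against 1081 and 2386 TPM in CT1 and CT2. The part of these tissues in the level of CDX1 was not tested.

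Posterior trunk markers (7 of 8 listed) summed to 39.1 to 123 TPM in OT and 625 to 753 TPM in CT, against 56.5 to 65.7 TPM in OH and 46.8 to 54.3 TPM in CH. Of the 7, 4 were called lower in OT than in CT, against 2.44% of all genes tested. All 7 are also members of the Wnt, FGF, growth zone or HOX lists above, so these calls are the same ones counted there. FGF8, which the midbrain-hindbrain also expresses, made up most of the sums there, at 43.3 and 32.8 TPM in OH1 and OH2, against 35.9 and 41.4 TPM in CH1 and CH2, so that these sums do not order OT against the midbrain-hindbrain. Brain markers summed to 30.3 to 62.6 TPM in OT and 19.3 to 25.6 TPM in CT, against 270 to 302 TPM in OH and 268 to 318 TPM in CH. Of the 9 brain markers, 4 were called higher and 1 lower in OT than in CT (median 2.13), against 4.29% higher and 2.44% lower of all genes tested. GBX2 was higher at 2.60 (adjusted p = 0.02 by edgeR) and PAX2 lower at -1.22 (adjusted p = 0.0158). Of the others called higher, PAX5 was at most 0.0953 TPM in OT, and EN1 and OTX2 were at most 0.101 and 0.337 TPM in CT. Paraxial mesoderm and somite markers (9 listed, 7 tested) summed to 20.2 to 48.1 TPM in OT and 31.7 to 40.1 TPM in CT, overlapping between the groups. Of the 7 tested, 2 were called higher in OT, against 4.29% of all genes tested, and 5 had a positive log2 fold change (median 0.944). Those called were PAX1 (4.13 and 4.88 TPM in OT1 and OT2, against 0.0747 TPM and 0 reads in CT1 and CT2, adjusted p = 0.00527 by edgeR) and TBX18 (log2 fold change 3.005, adjusted p = 0.0314). Both averaged more in the midbrain-hindbrain than in OT (PAX1 18.4 and 13.2 TPM in OH and CH, TBX18 2.48 and 2.71 TPM), so neither is particular to trunk somites here. MESP1 (-3.26) and PAX3 (-1.21) were negative and did not pass the test. The part of these shifts in tissue markers in the levels of CDX2 and CDX4 was not tested.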

How the data were processed

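RNA was sequenced as 100-base paired-end reads from poly-A libraries. The authors' reference was chicken GRCg7w (NCBI release 106) to which mouse Otx2 and EGFP had been added. The authors deposited StringTie read counts per gene and per transcript (no normalization) and TPM values. The aligner, versions and strand setting are not given in the sources used here. The FPKM values that the authors deposited in 20 further columns, also from StringTie, were not used.

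Counts of the 8 replicated libraries were fitted together in edgeR 4.0.16 (R 4.3.3; TMM, default low-count filter, 1 coefficient per group, 4 residual degrees of freedom). The contrasts were OT over CT, OH over CH, CT over CH, OT over OH and the difference between the first pair of these, by quasi-likelihood tests with Benjamini-Hochberg adjustment over 16611 genes at 0.05. The quasi-likelihood test gives no standard error, so each was computed as the absolute log2 fold change divided by the square root of its F statistic. OA and CA entered no test. The scripts were tested on simulated data. Alternatives were the DESeq2 1.42.0 Wald test, RLE normalization, no filter, limma 3.58.1 on log2(TPM + 1) and log2(TPM + 0.1), a replicate block, only the 4 samples of a comparison, all 10 samples, and leaving out each library.

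The members and gene lists were chosen with earlier results of these data known. Named are the members, the pathway list genes, the nearest gene on each side, and the 5 genes most like each member by Pearson correlation of log2(TPM + 1), among genes of at least 1 TPM in at least 2 libraries with an assigned symbol. Beside a list, its counts and median are descriptions. Nothing states that pools of a group came from separate experiments, so p-values measure the spread between pools. The library called CT1 here has the name NewCT1 in the labels, and whether it was made apart from the others is not stated. Some genes that these rules select are not reported here.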

Additional observations from a re-analysis of the deposited data

Results flagged for a closer look

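CDX1 was 66.4 TPM in OA, the area opaca library with exogenous Otx2, against 27.8 TPM in CA. It is listed here because OA is 1 of the libraries that entered no test and its level was above that of its control library. Since there is 1 library per group, the spread between pools of area opaca was not measured.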

How the results depend on the processing

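Among the values of the main comparisons recomputed under an alternative, 246 kept their direction and their side of the threshold (counts of genes: stayed within 1.5 times), 27 lost a call, 13 gained one, 46 counts moved and 4 reversed. The 4 reversals were in OH against CH, where no member was called: CDX1 was -0.11 without OH1, CDX2 was 0.0073 without OH2 and 0.0165 without CH2, and CDX4 was 0.0078 without OH2. Leaving out each library gave log2 fold changes of 2.25 to 4.12 for CDX1, -2.05 to -0.14 for CDX2 and -3.77 to -2.29 for CDX4 in OT against CT, and of -0.11 to 0.94, -0.14 to 0.02 and -0.37 to 0.01 in OH against CH. The difference of those effects was 1.75 to 3.61 for CDX1, -1.99 to -0.068 for CDX2 and -3.61 to -2.12 for CDX4. CT against CH gave 1.25 to 3.11, 3.57 to 3.81 and 4.63 to 4.86, and OT against OH gave 4.43 to 5.48, 1.71 to 3.61 and 1.14 to 2.61. The counts of called genes in those fits were 53 to 1039 for OT against CT (53 without CT1), 0 to 29 for OH against CH, 0 to 258 for the difference of effects, 416 to 1785 for CT against CH and 9 to 1833 for OT against OH.

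The main counts were 1118, 6, 37, 1293 and 554 genes in the same order, and the DESeq2 Wald test called 2776, 62, 786, 2457 and 2462. With DESeq2 the difference of effects of CDX4 (-2.68, adjusted p = 0.000159), CDX1 in CT against CH (2.47, 0.000604) and CDX4 in OT against OH (2.06, 8.44e-06) passed. CDX4 in OT against OH also passed with no filter (1.999, 0.045) and with limma on log2(TPM + 0.1) (1.81, 0.0495). limma called 3 genes at log2(TPM + 1) and 8 at log2(TPM + 0.1) for the difference of effects, and 851 at log2(TPM + 1) for OT against OH. With only the 4 samples of a comparison, CDX1 (2.90, 0.11) and CDX4 (-2.88, 0.0689) lost their calls in OT against CT, as did CDX1 (4.88, 0.0619) and CDX2 (2.96, 0.107) in OT against OH, and 135 genes were called in OT against CT, 0 in OH against CH and 9 in OT against OH. That fit has fewer residual degrees of freedom. It gives no value for the difference of effects, which needs 8 samples. Where a library was left out, the lone library of its group was assumed to vary like the other groups.

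Libraries with the same replicate number deviated together weakly within a treatment (correlation of deviations 0.143 between OT and OH, 0.128 between CT and CH). Across treatments they deviated weakly in opposite directions (-0.155 between OT and CT, -0.0404 between OH and CH). The labels name no shared batch, so the numbers were not taken to pair the libraries. With the replicate block CDX1 was 2.91 in OT against CT (adjusted p = 0.0721), CDX1 4.86 (0.0604) and CDX2 2.83 (0.0694) in OT against OH, and 0 and 74 genes were called for the difference of effects and OT against OH. A crossed replicate block, chosen after seeing the data, called 0 and 1246 genes there, with CDX1 in CT against CH at 2.25 (0.0253) and CDX4 in OT against OH at 1.97 (0.0368). Over all alternatives the adjusted p in OT against CT ranged from 1.57e-05 to 0.159 for CDX1, from 0.0039 to 0.619 for CDX2 and from 2.52e-11 to 0.102 for CDX4. The cause of these changes was not tested. Of the named genes in OT against CT, none of 14 reversed under 17 alternatives, and the calls of CHIC1 and TBXT held in 16 and that of WNT3A in 7.

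Each group has 2 pools or 1, so that a single pool decides several calls, and counting error is small beside that. CDX1 in the midbrain-hindbrain rests on 33 to 89 reads.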
